A study of Homo sapiens with 12 samples.

Results

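The ligands with which a tumour cell can switch on a natural killer (NK) cell were followed in a pair of human melanoma cell lines treated with interferon gamma (IFN-γ) or left untreated. IFN-γ is a cytokine released by NK cells and T cells once they are activated. The members are MICA, MICB, ULBP1, ULBP2, ULBP3 and NCR3LG1, taken as the rows of the deposited gene count tables that carry these symbols. All 6 were found among 44700 genes, and 5 of them were among the 15810 genes with enough counts to be tested, ULBP1 being the exception. The groups were MALME-3M cells given IFN-γ at 200 ng/mL for 24 h, untreated MALME-3M cells, SK-MEL-5 cells given IFN-γ at 150 ng/mL for 24 h and untreated SK-MEL-5 cells, with 3 libraries each and 12 in all. Both lines carry the genotype label WT, and IFN-γ was added when the cells were seeded. MALME-3M grew in IMDM with a higher serum content than the MEM used for SK-MEL-5, so line, medium and, with IFN-γ, dose cannot be told apart. Each line stands for 1 cell line only, and no NK cells were in the cultures. The libraries of a group came from triplicate wells, so p-values reflect only how far these wells differed, and part of that may be technical.

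MICA and MICB are stress-inducible relatives of MHC class I chains that bind neither peptide nor β2-microglobulin. ULBP1, ULBP2 and ULBP3 are smaller class I-like proteins, held in the membrane mostly through a lipid anchor. All of them are recognised by NKG2D, an activating receptor of NK cells and CD8 T cells that the KLRK1 gene encodes. NCR3LG1, also called B7-H6, belongs to the B7 family and binds NKp30, a different activating receptor of NK cells encoded by NCR3. In melanoma and other tumours these ligands are known to mark cells for killing, and to be lost from the surface by proteolytic shedding or by lower transcription.

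The 5 NKG2D ligand genes lie on chromosome 6 in GENCODE 29 on GRCh38, all as protein-coding genes. MICA spans chr6:31399784-31415315 and MICB chr6:31494881-31511124, both on the plus strand in the MHC region. ULBP2 spans chr6:149942000-149949235 and ULBP1 chr6:149964007-149973710 on the plus strand, and ULBP3 spans chr6:150063150-150069095 on the minus strand. NCR3LG1 spans chr11:17351726-17377341 on the plus strand. MICA shares 62 exon bases with HCP5, a transcript on the same strand that is not a row of the gene tables. Of all 100-base windows in the transcripts, 11.9% of those of ULBP2 recur in RAET1L or RAET1G, 6.86% of those of ULBP3 and 1.15% of those of ULBP1 recur in RAET1K, and none of those of MICA, MICB or NCR3LG1 recur in another gene, and whether reads there were left unassigned was not tested.

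The 250 bases before the RefSeq transcript start (GRCh38.p14) are shown for MICA and MICB, the close pair of which 1 passed the test with IFN-γ, and for NCR3LG1, the member with the largest difference between the lines. They are written 5′ to 3′ on the strand of the gene, which is the plus strand for all 3, at chr6:31403345-31403594, chr6:31497895-31498144 and chr11:17351550-17351799. Capitals mark matches of the head-to-head heat shock element GAANNTTC and of the GC box GGGCGG, searched on both strands, so that CCGCCC is a GC box on the other strand.
MICA: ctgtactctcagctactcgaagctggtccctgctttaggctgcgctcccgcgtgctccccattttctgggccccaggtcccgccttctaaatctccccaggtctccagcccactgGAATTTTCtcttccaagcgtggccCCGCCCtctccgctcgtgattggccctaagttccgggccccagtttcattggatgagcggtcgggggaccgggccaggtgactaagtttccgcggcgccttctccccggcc
MICB: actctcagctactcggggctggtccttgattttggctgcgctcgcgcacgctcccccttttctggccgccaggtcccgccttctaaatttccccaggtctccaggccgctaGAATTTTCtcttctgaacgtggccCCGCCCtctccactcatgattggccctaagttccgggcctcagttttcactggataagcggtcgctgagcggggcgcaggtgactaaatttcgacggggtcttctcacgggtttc
NCR3LG1: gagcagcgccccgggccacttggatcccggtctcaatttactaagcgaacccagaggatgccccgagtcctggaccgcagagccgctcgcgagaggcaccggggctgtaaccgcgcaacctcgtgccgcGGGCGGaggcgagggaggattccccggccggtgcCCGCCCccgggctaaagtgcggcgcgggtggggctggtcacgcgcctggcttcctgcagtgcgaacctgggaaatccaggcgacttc
The MICA and MICB windows were identical at 210 of 254 aligned columns (82.7%), whereas MICA and NCR3LG1 were at 49.3%. Each of the MICA and MICB windows holds 1 heat shock element, beginning 135 bases before the start in MICA and 139 bases before it in MICB, and 1 GC box, 111 bases before the start in MICA and 115 bases before it in MICB. The GAANNTTC motif was in 5.78% of the 35116 RefSeq promoters of the same length and the GC box in 42.6%. The windows of ULBP1, ULBP2, ULBP3 and NCR3LG1 hold no GAANNTTC match. GC boxes numbered 2 in ULBP1, 1 in ULBP2, 6 in ULBP3 and 2 in NCR3LG1. None of the 6 windows holds a match of TTCNNNGAA, the letters of the gamma-activated site (6.57% of promoters), or of the core letters of the interferon-stimulated response element (3.02% of promoters). CCAAT, found in 32.0% of promoters, occurs 2 times in MICA and 1 time each in MICB and ULBP2. These matches describe letters in short windows and were not tested for binding. For MICA and MICB the windows lie inside the extents that GENCODE gives, because some annotated transcripts begin further upstream. The windows of NCR3LG1 and ULBP2 lie partly inside those extents, since they end past the GENCODE starts of these genes.

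Gene counts totalled 15514412 to 22921184 per library, and 3 counts over the 3 libraries of a group correspond to at most 0.0581 counts per 1e6 gene counts (CPM). The IFN-γ labels were checked by IRF1, a transcription factor gene known to be induced by IFN-γ, which averaged 253 ± 31.0 CPM in treated and 2.94 ± 0.559 CPM in untreated MALME-3M cells, and 204 ± 2.06 CPM in treated and 5.05 ± 0.767 CPM in untreated SK-MEL-5 cells (SD, n = 3 each). All 7 melanocyte markers (MLANA, PMEL, TYR, DCT, TYRP1, SOX10 and MITF) were above 1 CPM in every group and summed to 5069 to 6254 CPM per library. TYRP1 averaged 5.81 to 6.88 CPM in the MALME-3M groups and 473 to 517 CPM in the SK-MEL-5 groups. Of 11 NK and T cell markers none reached 1 CPM in any group, and they summed to 0.120 to 1.67 CPM per library. KLRK1, the gene of NKG2D, had no count in treated or untreated MALME-3M or treated SK-MEL-5 cells. Myeloid markers were carried by CD68, a lysosomal protein gene, at 116 ± 5.40 CPM in treated and 213 ± 2.64 CPM in untreated MALME-3M cells, and the other 5 stayed below 1 CPM in all groups. Of the 7 fibroblast markers, LUM was the highest, at 8.55 and 13.1 CPM in treated and untreated MALME-3M cells and at 125 and 161 CPM in treated and untreated SK-MEL-5 cells. The part of these markers in the results below was not tested. In such bulk libraries, fewer cells that express a gene and less RNA of it per cell cannot be told apart.

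MICB was the only member called higher with IFN-γ, and only the call in MALME-3M cells passed the threshold. Its level was 15.9, 21.1 and 21.6 CPM in treated MALME-3M cells and 13.5, 13.6 and 10.8 CPM in untreated MALME-3M cells. All 3 treated libraries lay above all 3 untreated ones. The log2 fold change was 0.64 ± 0.14 (SE), a 1.55-fold rise with a 95% interval of 1.27 to 1.90, and passed the quasi-likelihood test of edgeR with an adjusted p of 0.00275 (Benjamini-Hochberg, all tested genes). The call was kept when each of the 12 libraries was left out in turn, with adjusted p up to 0.0265. On estimated counts summed over annotated transcripts the change was 0.66 with an adjusted p of 0.105 in edgeR's test.

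In SK-MEL-5 cells MICB stood at 6.65, 7.32 and 6.84 CPM with IFN-γ and at 5.79, 4.32 and 5.58 CPM without it. All 3 treated libraries lay above all 3 untreated ones. The log2 fold change of 0.42 ± 0.16 did not pass the test (adjusted p = 0.0952, edgeR), and its 95% interval ran from 0.09 to 0.75. Over all alternatives and fits that left out 1 library, this change ran from 0.29 to 0.85. Its adjusted p there was 0.0512 to 0.359 (edgeR or DESeq2). On the per-length TPM given below, MICB was 3.92 to 4.20 in treated and 1.84 to 3.23 in untreated SK-MEL-5 cells. The response of MICB in MALME-3M minus that in SK-MEL-5 was 0.22 ± 0.21 (95% interval -0.22 to 0.66, adjusted p = 0.670, edgeR), so the lines were not shown to differ in it.

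MICA, the close relative of MICB, did not pass the test in either line. It stood at 36.5, 33.9 and 36.2 CPM in treated MALME-3M cells and at 34.7, 35.6 and 37.7 CPM in untreated ones. These libraries overlapped throughout. The log2 fold change was -0.02 ± 0.09, with a 95% interval of -0.21 to 0.17 (adjusted p = 0.925, edgeR). In SK-MEL-5 cells MICA stood at 20.6, 23.2 and 25.0 CPM with IFN-γ and at 25.9, 26.8 and 21.3 CPM without it. The groups overlapped, and the change was -0.11 ± 0.09 with a 95% interval of -0.30 to 0.09 (adjusted p = 0.534, edgeR). As folds, these 95% intervals ran from 0.867 to 1.12 in MALME-3M and from 0.811 to 1.06 in SK-MEL-5 cells. They hold for gene counts only. On estimated counts of annotated transcripts the changes were -0.25 in MALME-3M and -0.23 in SK-MEL-5 cells, and neither passed the test.

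Taken within each library, the ratio of MICB to MICA counts, which needs no scaling between libraries, was 0.436, 0.622 and 0.596 in treated and 0.388, 0.383 and 0.286 in untreated MALME-3M cells. In SK-MEL-5 cells it was 0.322, 0.316 and 0.273 with IFN-γ and 0.223, 0.161 and 0.262 without it. In both lines every treated library had a higher ratio than every untreated one, with 0.273 against 0.262 as the nearest values in SK-MEL-5 cells. The CPM of MICB alone separated the same libraries, so the ratio is not independent evidence. Because the genes differ in length, the ratio shows how their counts moved against each other and not which transcript was more abundant.

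**Figure D1:**
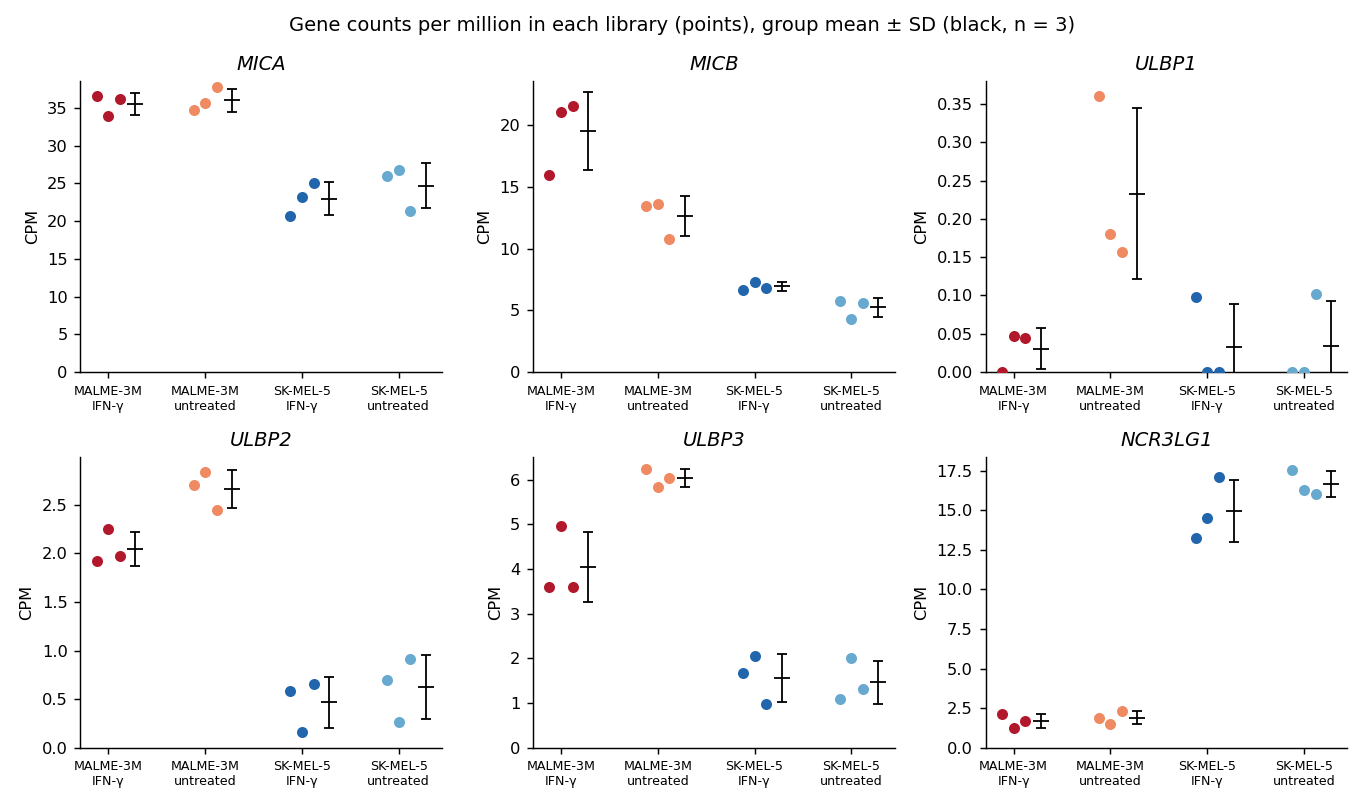
Each panel plots 1 ligand gene, with CPM on a linear y axis from 0 and the 4 groups of line and treatment on the x axis; points are libraries and the black marks are the mean and SD (n = 3). MICB in treated MALME-3M cells reaches 21.6 CPM, MICA differs between the lines but not beyond the spread with treatment, and NCR3LG1 lies at 1.22 to 2.34 CPM in MALME-3M cells and at 13.3 to 17.6 CPM in SK-MEL-5 cells.

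Of the ULBP genes, which encode the other NKG2D ligands among the members, neither of the tested ones passed the test with IFN-γ over all 12 libraries. ULBP3 stood at 3.61, 4.96 and 3.59 CPM in treated MALME-3M cells and at 6.25, 5.85 and 6.04 CPM in untreated ones. All treated libraries lay below all untreated ones. The log2 fold change was -0.57 ± 0.23 (95% interval -1.06 to -0.09). Its adjusted p was 0.0981 in edgeR's test over all 12 libraries, and 0.0439 when only the 6 MALME-3M libraries were fitted. Over all alternatives and fits that left out 1 library, the change ran from -0.75 to -0.35. The adjusted p there reached 0.848 (edgeR or DESeq2). On the per-length TPM given below the MALME-3M groups overlapped, at 6.89 to 10.2 in treated and 8.99 to 12.6 in untreated cells. In SK-MEL-5 cells ULBP3 stood at 1.66, 2.05 and 0.977 CPM with IFN-γ and at 1.08, 2.00 and 1.32 CPM without it, with a change of 0.08 ± 0.29 (adjusted p = 0.916, edgeR). The MALME-3M response minus the SK-MEL-5 response was -0.65 ± 0.37 (95% interval -1.43 to 0.12, adjusted p = 0.407, edgeR).

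ULBP2 stood at 1.92, 2.25 and 1.97 CPM in treated MALME-3M cells and at 2.71, 2.83 and 2.45 CPM in untreated ones. The groups did not overlap, yet these levels rest on 32 to 48 counts per library. The change was -0.37 ± 0.33 (95% interval -1.07 to 0.33, adjusted p = 0.509, edgeR). In SK-MEL-5 cells ULBP2 had 12, 3 and 10 counts in the treated libraries and 11, 6 and 18 counts in the untreated ones. The groups overlapped, and the change of -0.40 ± 0.48 has a 95% interval of -1.42 to 0.61 (adjusted p = 0.675, edgeR), wide enough to hold a 1.52-fold rise or a larger fall. Without untreated replicate 3, or without treated replicate 2, the change was 0.01.

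ULBP1 was near the limit of detection in every group and was not tested. Its counts were 0, 1 and 1 in treated and 6, 3 and 3 in untreated MALME-3M libraries, and 2, 0 and 0 in treated and 0, 0 and 2 in untreated SK-MEL-5 libraries. In MALME-3M cells the ratio of its summed counts per 1e6, treated over untreated, was 0.143 with a 95% Clopper-Pearson interval of 0.0156 to 0.645. That interval covers counting error only. Without the filter on low counts, edgeR's test gave ULBP1 an adjusted p of 0.280 in MALME-3M cells. The remaining NKG2D ligand genes of the same family, which are no members, had as few counts. RAET1G summed to 13 counts in treated and 4 in untreated MALME-3M cells with none in SK-MEL-5 cells, RAET1E had at most 4 counts in a group, and RAET1L had none in any library.

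NCR3LG1, the NKp30 ligand, did not pass the test with IFN-γ in either line. It stood at 2.10, 1.22 and 1.66 CPM in treated MALME-3M cells and at 1.86, 1.51 and 2.34 CPM in untreated ones. The groups overlapped, and the log2 fold change was -0.23 ± 0.22 (95% interval -0.70 to 0.24, adjusted p = 0.548, edgeR). In SK-MEL-5 cells it stood at 13.3, 14.5 and 17.1 CPM with IFN-γ and at 17.6, 16.3 and 16.0 CPM without it. These groups overlapped as well, with a change of -0.16 ± 0.14 (95% interval -0.46 to 0.15, adjusted p = 0.563, edgeR).

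Of the 5 tested members, 1 rose with IFN-γ in MALME-3M cells and none fell, where 18.3% of all tested genes were called (9.51% higher and 8.77% lower). In SK-MEL-5 cells none of the 5 was called by edgeR, with 1 (MICB) at an unadjusted p under 0.05 and none called by DESeq2, where 13.0% of all tested genes were called (5.98% higher and 7.05% lower). For the difference between the responses none was called by edgeR or DESeq2, and none had an unadjusted p under 0.05, where 4.46% of all tested genes were called (2.67% higher and 1.79% lower). The CPM of the groups did not overlap for 3 members in MALME-3M cells (33.1% of all tested genes) and for 1 member in SK-MEL-5 cells (29.1%). The median log2 fold change of the 5 was -0.23 in MALME-3M cells, against 0.00074 over all tested genes, and -0.11 in SK-MEL-5 cells, against -0.03 over all tested genes.

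**Figure D2:**
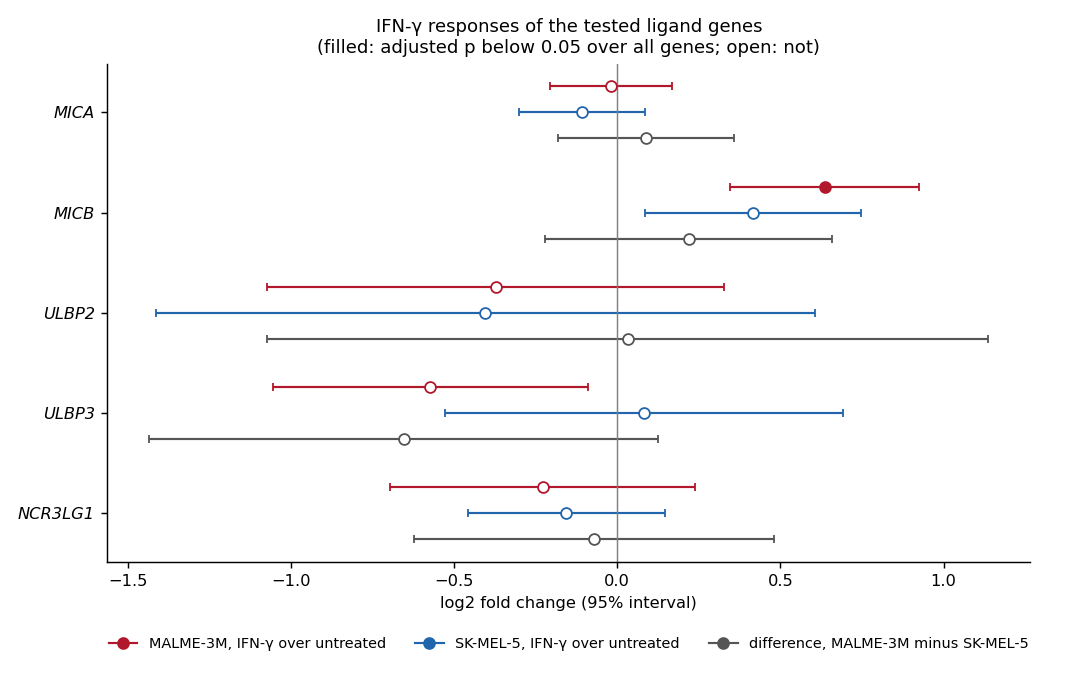
Log2 fold changes of the 5 tested ligand genes on the x axis, with 95% intervals as bars: red for IFN-γ over untreated in MALME-3M, blue for the same in SK-MEL-5, grey for the MALME-3M response minus the SK-MEL-5 response. The filled point, MICB in MALME-3M at 0.64, passed an adjusted p of 0.05; open points did not, and all 5 grey intervals include 0.

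Between the lines the fold changes of all 5 tested ligands were larger on gene counts than those with IFN-γ, with the NKG2D ligands higher and the NKp30 ligand lower in MALME-3M. All 5 tested members were called in untreated cells, 4 higher and 1 lower in MALME-3M, where 71.7% of all tested genes were called (34.5% higher and 37.2% lower), so that a call between these lines was common. In untreated cells the log2 fold change of MALME-3M over SK-MEL-5 was 0.54 ± 0.09 for MICA, 1.28 ± 0.15 for MICB, 2.11 ± 0.39 for ULBP2 and 2.01 ± 0.26 for ULBP3. The 4 NKG2D ligand genes were thus 1.46-fold, 2.42-fold, 4.30-fold and 4.03-fold higher in MALME-3M cells. Their adjusted p ranged from 3.77e-07 for MICB to 8.13e-05 for ULBP2 in edgeR's test. NCR3LG1 was lower in MALME-3M cells by a log2 fold change of -3.11 ± 0.18 (adjusted p = 9.70e-12, edgeR), and SK-MEL-5 cells held 8.63-fold more of it (95% interval 6.65 to 11.2). The CPM of the 2 lines did not overlap for any of the 5, as for 73.8% of all tested genes.

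With IFN-γ the directions were the same. All 5 were again called, 4 higher and 1 lower in MALME-3M, where 71.8% of all tested genes were called (35.4% higher and 36.4% lower), and again none overlapped (74.6% of all tested genes). The log2 fold change of treated MALME-3M over treated SK-MEL-5 cells was 0.63 ± 0.09 for MICA, 1.50 ± 0.14 for MICB, 2.14 ± 0.41 for ULBP2 and 1.36 ± 0.26 for ULBP3. For NCR3LG1 it was -3.18 ± 0.18, and treated SK-MEL-5 cells held 9.07-fold more of it than treated MALME-3M cells. The comparisons with and without IFN-γ use separate libraries. On estimated counts of annotated transcripts the MICA difference between the lines was 0.18 without IFN-γ and 0.16 with it. It passed the test in neither (adjusted p = 0.244 and 0.306, edgeR), so the call for MICA depends on the table. The ULBP3 call between treated lines was lost on those counts as well (adjusted p = 0.0955, edgeR). On those estimates the IFN-γ changes of MICA, -0.25 in MALME-3M and -0.23 in SK-MEL-5 cells, were larger in size than its line differences. ULBP1 summed to 12 counts in untreated MALME-3M and 2 in untreated SK-MEL-5 cells, a ratio of counts per 1e6 of 6.81 with a 95% Clopper-Pearson interval of 1.52 to 62.6 for counting error only. Without the filter on low counts its adjusted p was 0.116 in edgeR's test.

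**Figure D3:**
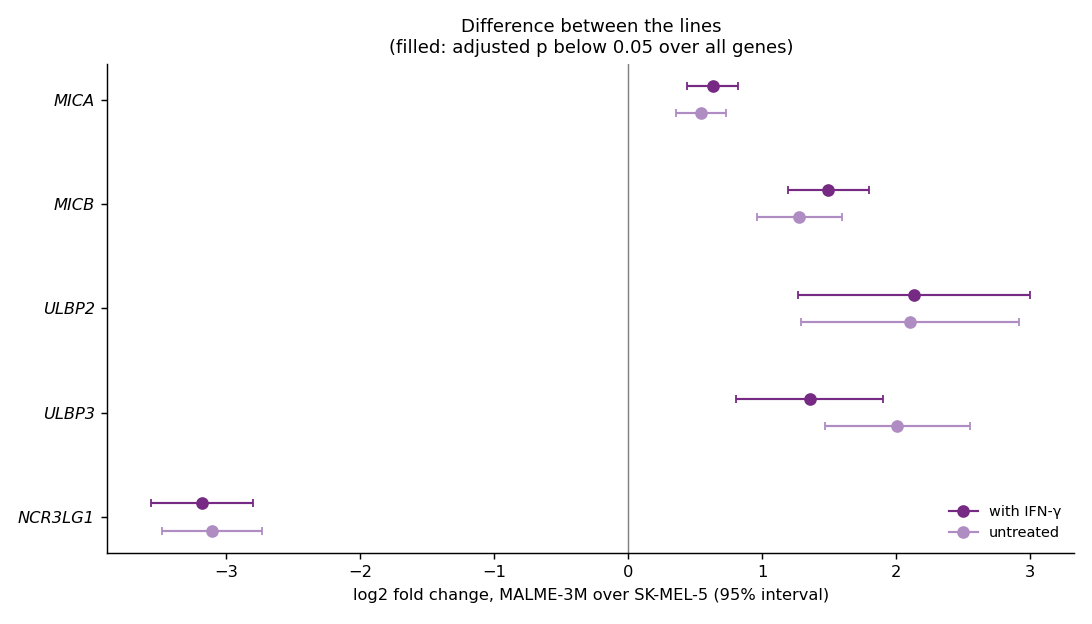
Log2 fold changes of MALME-3M over SK-MEL-5 on the x axis with 95% intervals, for cells with IFN-γ (dark) and untreated cells (light); all points are filled because all passed an adjusted p of 0.05. The 4 NKG2D ligand genes lie right of 0, between 0.54 and 2.14, and NCR3LG1 lies left of it, at -3.18 and -3.11.

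Levels of different genes were compared per transcript length, on TPM summed over the annotated transcripts of a gene and rescaled to 1e6 over all transcripts tied to genes. MICA was the highest member in all 4 groups, at 24.4 ± 2.81 TPM in treated and 28.4 ± 1.64 TPM in untreated MALME-3M cells, and at 22.3 ± 2.18 TPM in treated and 27.7 ± 3.41 TPM in untreated SK-MEL-5 cells. In MALME-3M cells MICB and ULBP3 came next. MICB had 9.71 ± 3.22 TPM with IFN-γ and 5.12 ± 0.390 TPM without it, and ULBP3 had 8.17 ± 1.75 TPM with IFN-γ and 10.6 ± 1.85 TPM without it. With IFN-γ their libraries overlapped, whereas in untreated cells all 3 ULBP3 values, from 8.99 TPM, lay above all 3 MICB values, up to 5.39 TPM. ULBP2 followed at 2.90 ± 0.302 TPM in treated and 3.70 ± 0.369 TPM in untreated MALME-3M cells, then NCR3LG1 at 0.765 ± 0.118 TPM in treated and 1.01 ± 0.374 TPM in untreated ones.

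In SK-MEL-5 cells NCR3LG1 took the place after MICA, at 5.28 ± 0.177 TPM with IFN-γ and 6.12 ± 0.991 TPM without it. MICB had 4.04 ± 0.148 TPM with IFN-γ and 2.34 ± 0.771 TPM without it, and ULBP3 had 3.21 ± 1.24 TPM with IFN-γ and 2.11 ± 1.89 TPM without it. The libraries of MICB and ULBP3 overlapped in both SK-MEL-5 groups, so their order there is not settled. One untreated SK-MEL-5 library had 0.0217 TPM of ULBP3 although its gene table held 26 counts of it, so the 2 tables disagree there. ULBP2 had 0.807 ± 0.323 TPM in treated and 1.02 ± 0.275 TPM in untreated SK-MEL-5 cells, and ULBP1 was at or next to 0 in all groups. On gene counts per kilobase of merged exons the order was the same in 22 of 24 cases, and MICB and NCR3LG1 changed places in treated SK-MEL-5 cells, at 2.48 ± 0.124 and 2.32 ± 0.302 CPM per kilobase.

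**Figure D4:**
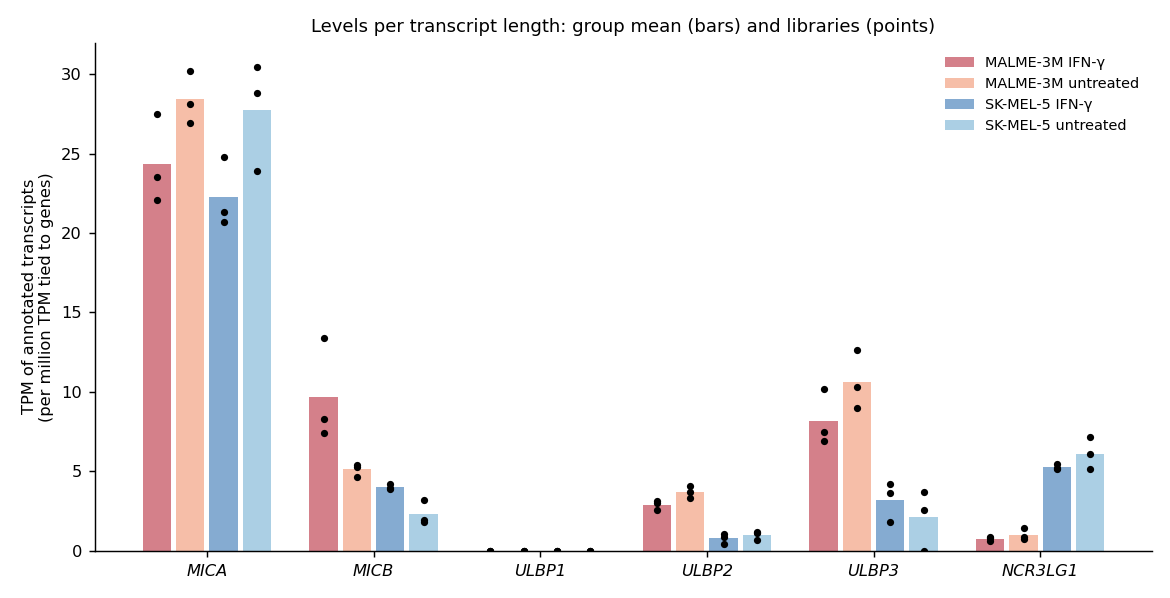
TPM on the y axis (annotated transcripts of a gene, per 1e6 TPM tied to genes) for each ligand gene on the x axis; bars are group means from 0 and points are the 3 libraries of each group, with IFN-γ bars left of the untreated bars of their line. MICA has the tallest bars, 22.3 to 28.4 TPM, NCR3LG1 is the next tallest in SK-MEL-5 cells, and ULBP1 has no visible bar.

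MICA made up most of the NKG2D ligand transcripts measured here. Of the TPM summed over MICA, MICB and the 3 ULBP genes, MICA held 53.9% ± 1.94 in treated and 59.4% ± 3.86 in untreated MALME-3M cells, and 73.3% ± 4.62 in treated and 84.0% ± 4.62 in untreated SK-MEL-5 cells (SD, n = 3 each). The untreated SK-MEL-5 share includes the library with 0.0217 TPM of ULBP3. Of the summed CPM, which are not per length, MICA held 58.2% ± 4.38 in treated and 62.5% ± 3.03 in untreated MALME-3M cells. In SK-MEL-5 cells it held 71.7% ± 2.64 of the CPM with IFN-γ and 76.9% ± 3.71 without it. The TPM sum itself was 45.2 ± 4.50 TPM in treated and 47.9 ± 2.05 TPM in untreated MALME-3M cells, and 30.3 ± 1.10 TPM in treated and 33.2 ± 5.29 TPM in untreated SK-MEL-5 cells. Within each line the TPM sums with and without IFN-γ differed by less than the larger of their SD. On gene counts this did not hold in MALME-3M cells, where the sum was higher with IFN-γ, at 61.2 ± 2.84 CPM against 57.6 ± 0.478 CPM. In SK-MEL-5 cells the sums on gene counts were 32.0 ± 2.03 CPM with IFN-γ and 32.0 ± 2.46 CPM without it.

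Annotated isoforms were described from the estimated counts, without a test. MICA-209, a protein-coding transcript, carried 95.6% of the estimated counts of MICA in treated and 97.4% in untreated MALME-3M cells, and 99.6% in treated and 99.0% in untreated SK-MEL-5 cells. MICB-204, also protein-coding, carried 78.4% of those of MICB in treated and 78.5% in untreated MALME-3M cells, and 87.0% in treated and 85.2% in untreated SK-MEL-5 cells. MICB-203, annotated as a retained intron, held 5.90% to 25.2% of MICB in the treated and 0% to 9.67% in the untreated MALME-3M libraries, and these ranges overlapped. They rest on 7.44 to 28.05 estimated counts per treated and 0 to 7.49 per untreated library. For NCR3LG1 the coding transcript NCR3LG1-201 held 64.2% of the estimated counts in treated and 68.8% in untreated MALME-3M cells, and 83.3% in treated and 81.9% in untreated SK-MEL-5 cells. The rest belonged to NCR3LG1-202, annotated as a target of nonsense-mediated decay, which held 32.4% to 39.9% in treated MALME-3M libraries and 15.0% to 19.0% in treated SK-MEL-5 libraries. These shares rest on only 7.18 to 9.07 estimated counts of NCR3LG1-202 per treated MALME-3M library, and on 25.7 to 35.2 per treated SK-MEL-5 library. In untreated cells these shares overlapped between the lines, at 22.0% to 40.8% in MALME-3M and 10.4% to 23.9% in SK-MEL-5 libraries.

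To show which genes shared a member's pattern, log2 CPM over the 12 libraries was correlated with that of 12844 genes at a mean of at least 1 CPM, as a description with no p. Because the libraries fall into 2 lines, these likenesses follow mostly the line difference. The genes most like NCR3LG1 were EYA4, TRERF1 and HCN2 (Pearson r of 0.996 each), and those most like MICB were FBXW4, PYGB and ATXN7 (r of 0.982 to 0.983). MICA was most like AP5B1, CYP20A1 and OPN3, ULBP2 most like DENND2D and SMARCAL1, and ULBP3 most like IDI2-AS1, RNF5 and FAM114A2, with r between 0.970 and 0.984. After each line's mean was taken out, MICB was most like a gene known only by a clone name (r of 0.944), ZBTB42 (0.943) and DVL2 (0.938), and ULBP3 most like PPARGC1B (0.971). The highest within-line r was 0.878 for MICA, 0.865 for ULBP2 and 0.899 for NCR3LG1. Among the members themselves the within-line r ran from -0.603 for MICB with NCR3LG1 to 0.551 for MICA with NCR3LG1.

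Genes that act beside the members were read from lists of ligands and regulators. As a base rate for each list, 18.3% of all tested genes were called in MALME-3M cells (9.51% higher and 8.77% lower). In SK-MEL-5 cells that rate was 13.0% (5.98% higher and 7.05% lower). Of 13 genes for ligands of other activating NK receptors, 10 were tested, and 4 rose and 3 fell with IFN-γ in MALME-3M cells while 3 rose and 2 fell in SK-MEL-5 cells. CLEC2B, the ligand of NKp80, averaged 19.3 ± 4.11 CPM in treated and 9.89 ± 1.52 CPM in untreated MALME-3M cells, a log2 fold change of 0.96 ± 0.15 (adjusted p = 9.96e-05, edgeR), and rose by 0.64 ± 0.15 in SK-MEL-5 cells (adjusted p = 0.00545, edgeR). PVR, bound by the activating receptor DNAM-1 and the inhibitory receptor TIGIT, rose by 0.51 ± 0.07 in MALME-3M and 0.37 ± 0.07 in SK-MEL-5 cells. SLAMF7, a self-ligand on NK cells, fell by 0.65 ± 0.17 in MALME-3M and by 0.74 ± 0.18 in SK-MEL-5 cells. Its adjusted p was 0.0594 without untreated MALME-3M replicate 3 (change -0.60), 0.0538 without treated MALME-3M replicate 2 (-0.58) and 0.0528 without treated SK-MEL-5 replicate 1 (-0.63), all in edgeR's test. On estimated transcript counts the SK-MEL-5 call of CLEC2B (adjusted p = 0.543, edgeR) and the MALME-3M call of SLAMF7 (adjusted p = 0.377, edgeR) were lost.

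Of 19 genes for ligands of inhibitory NK receptors, 18 were tested. Of these 11 rose and none fell in MALME-3M cells, where 18.3% of all tested genes were called. In SK-MEL-5 cells 9 rose and 3 fell, where 13.0% of all tested genes were called. HLA-E, the ligand of the inhibitory receptor NKG2A, averaged 990 ± 29.2 CPM in treated and 154 ± 5.35 CPM in untreated MALME-3M cells, and 855 ± 40.5 CPM in treated and 107 ± 3.36 CPM in untreated SK-MEL-5 cells. CD274, which encodes PD-L1, rose by 2.58 ± 0.14 in MALME-3M and 3.55 ± 0.21 in SK-MEL-5 cells on the log2 scale. HLA genes are alike in sequence, so how reads were split between them is uncertain. HLA-B rose by 3.12 ± 0.05 in MALME-3M and by 1.99 ± 0.04 in SK-MEL-5 cells. HLA-F rose by 1.97 ± 0.08 in MALME-3M and by 2.03 ± 0.09 in SK-MEL-5 cells. PDCD1LG2 rose by 3.20 ± 0.53 in MALME-3M cells, and its change of 2.39 ± 0.79 in SK-MEL-5 cells did not pass the test (adjusted p = 0.0547, edgeR). CDH1, the KLRG1 ligand E-cadherin, fell by 3.03 ± 0.70 in SK-MEL-5 cells, where it averaged 0.511 ± 0.156 CPM with IFN-γ and 4.05 ± 4.75 CPM without it. Without untreated SK-MEL-5 replicate 3 the CDH1 change was -1.39. Its call was lost in a robust fit (adjusted p = 0.103, edgeR) and on estimated transcript counts (adjusted p = 0.0810, edgeR). CDH2 of the same list also fell in SK-MEL-5 cells, with a change of -1.45 ± 0.14 (adjusted p = 5.20e-07, edgeR). It averaged 1.38 ± 0.0775 CPM with IFN-γ and 3.80 ± 0.515 CPM without it there, and was not called in MALME-3M cells (-0.04 ± 0.08). TNFRSF14 was called in opposite directions, at 0.19 ± 0.06 in MALME-3M and -0.19 ± 0.06 in SK-MEL-5 cells. The MALME-3M call was lost without untreated replicate 1 or 2 or treated replicate 2 or 3, where the change was 0.16 to 0.20. The SK-MEL-5 call was lost without untreated SK-MEL-5 replicate 1 or 2, treated SK-MEL-5 replicate 2 or 3 or treated MALME-3M replicate 1 or 3, where the change was -0.21 to -0.15. On estimated transcript counts both changes were near 0, at 0.020 in MALME-3M (adjusted p = 0.974, edgeR) and -0.0092 in SK-MEL-5 cells (adjusted p = 1.0, edgeR).

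**Figure D5:**
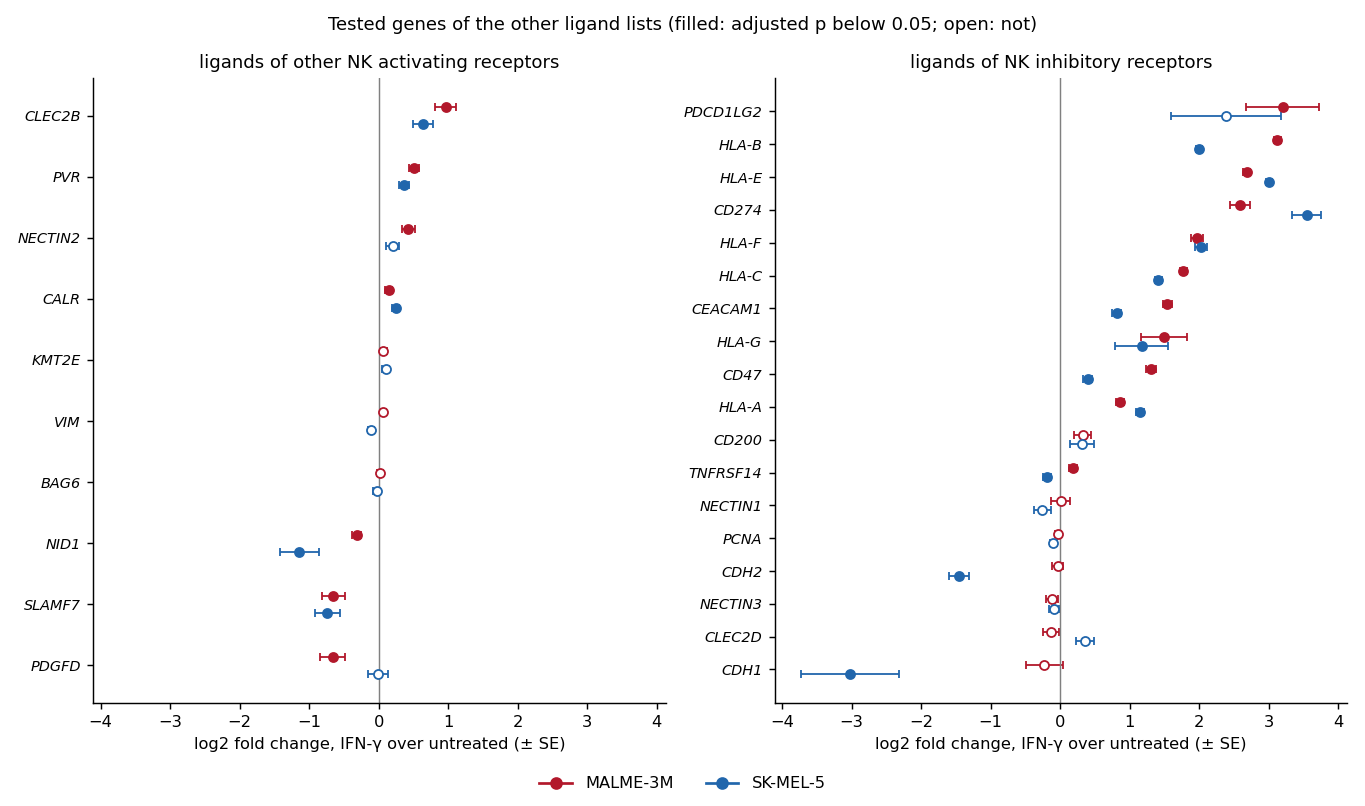
Log2 fold changes of IFN-γ over untreated on the x axis, ± SE, for tested genes of the lists of other activating ligands (left) and inhibitory ligands (right), in MALME-3M (red) and SK-MEL-5 (blue). Filled points passed an adjusted p of 0.05. The activating ligands lie between -1.14 and 0.96. Their lowest point is NID1 in SK-MEL-5 cells, which rests on 19 counts in treated and 45 in untreated libraries. The inhibitory ligands lie between -3.03 for CDH1 and 3.55 for CD274, both in SK-MEL-5 cells.

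Among 13 adhesion and costimulatory ligand genes, 7 were tested, and 2 rose in each line while 1 fell in MALME-3M cells. Over all tested genes 18.3% were called in MALME-3M and 13.0% in SK-MEL-5 cells. ICAM1, which holds NK cells to their target through LFA-1, rose by 2.52 ± 0.05 in MALME-3M and 2.73 ± 0.05 in SK-MEL-5 cells on the log2 scale. IL15, which encodes a survival cytokine of NK cells, rose by 2.84 ± 0.46 in MALME-3M and 3.05 ± 0.40 in SK-MEL-5 cells. Its MALME-3M call was lost on estimated transcript counts (adjusted p = 0.212, edgeR).

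The shedding and folding list covers the proteases that release MICA, MICB and ULBP proteins from the surface, their inhibitors and enzymes of lipid anchoring. Of its 13 genes 12 were tested. In MALME-3M cells 2 rose and 5 fell, where 18.3% of all tested genes were called. In SK-MEL-5 cells 1 rose and 3 fell, where 13.0% of all tested genes were called. ADAM10, a sheddase of these ligands, averaged 229 ± 10.9 CPM in treated and 277 ± 4.83 CPM in untreated MALME-3M cells, and 147 ± 1.16 CPM in treated and 177 ± 8.07 CPM in untreated SK-MEL-5 cells. It fell by 0.27 ± 0.05 in MALME-3M and by 0.26 ± 0.05 in SK-MEL-5 cells (adjusted p = 0.000486 and 0.000879, edgeR). TIMP3, an inhibitor of such proteases, fell by 0.42 ± 0.04 in MALME-3M cells. MMP2 and TIMP1 rose by 0.68 ± 0.17 and 0.52 ± 0.07 in MALME-3M cells. The MMP2 call was lost with DESeq2 (adjusted p = 0.0880) and on estimated transcript counts (adjusted p = 0.459, edgeR), and that of ADAM10 in SK-MEL-5 cells on transcript counts (adjusted p = 0.219, edgeR). In SK-MEL-5 cells PDIA6, which acts on MICA before it is shed, rose by 0.24 ± 0.05.

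All 21 genes of the list of transcription factors and stress regulators linked to NKG2D ligand genes were tested. In MALME-3M cells 7 rose and 3 fell, where 18.3% of all tested genes were called. In SK-MEL-5 cells 2 rose and 1 fell, near the 13.0% of all tested genes called there. IRF1 rose by 6.43 ± 0.12 in MALME-3M and 5.35 ± 0.11 in SK-MEL-5 cells. In SK-MEL-5 cells HSPA8, a constitutive heat shock protein gene, fell by 0.19 ± 0.05, a call that was lost on estimated transcript counts (adjusted p = 0.211, edgeR).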

How the data were processed

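Total RNA from both lines was sequenced, with 3 libraries in each of the 4 groups. The authors deposited raw read counts per gene, not normalized, and a table of estimated counts and TPM per transcript for each library, in the formats of HTSeq and kallisto per the file headers. The submitters' processing notes also name cutadapt, STAR and SAMtools, without versions, and the build hg38. Sources used here do not give the strand setting, the handling of PCR duplicates or the gene annotation, so reads of overlapping genes cannot be told apart. Clopper-Pearson intervals cover counting error only, and those of fold changes come from the fitted model. For each gene count there were 7.47 to 13.7 alignments that were not unique, and ambiguous ones came to 4.19% to 4.54% of gene counts; the 5 summary lines stayed out of library sizes and tests.

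Gene counts were fitted in R 4.3.3 with edgeR 4.0.16 (filterByExpr with a minimum count of 10, 15810 genes, TMM scaling, quasi-likelihood test, 1 mean per group over all 12 libraries, 8 residual degrees of freedom). Calls needed p below 0.05 after Benjamini-Hochberg adjustment over these genes. SE were taken as log2 fold change divided by the root of F, and understate the error where a group has few counts. CPM used TMM-scaled totals over the tested genes, whereas the totals of 15514412 to 22921184 are over all genes. Estimated counts of 160246 transcripts, tied to genes by GENCODE 29 and holding 49.9% to 55.2% of each library's estimate, were summed and rounded as an alternative; one assembled transcript took 46.6% to 57.7% of TPM, so TPM was rescaled over tied transcripts. Replicates differed by more than sampling noise (chi-square per gene 6.35 to 19.3), so none was merged. The libraries were numbered only to name them. The scripts were tested on simulated data.

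The members and lists were chosen with earlier results of these data known. Beside the 6 members, each list names at most the 4 called genes with the largest fold change per line. Any gene called in opposite directions is named too. Of the genes picked by this rule, most whose call was lost on leaving out 1 library are counted but not named. CDH2 is named outside this rule. Some items are not reported here. Alternatives were other scalings, filters and fits, DESeq2 1.42.0, transcript counts and leaving out each library. Promoters are from RefSeq on GRCh38.p14, matched by symbol for all 6 members.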

Additional observations from a re-analysis of the deposited data

Results flagged for a closer look

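None of the 5 tested ligand genes met a criterion for a closer look; no group had the 4 or more libraries needed to look for a library far from the others. Genes beside them did, because their IFN-γ responses differed between the lines in edgeR's test of the difference (MALME-3M minus SK-MEL-5, log2 scale). Among ligands of inhibitory receptors the difference was 1.13 for HLA-B, 2.80 for CDH1 and 0.38 for TNFRSF14, and it was -0.97 for CD274 and -0.32 for HLA-E. The CDH1 value rests on SK-MEL-5 cells, where the gene had 27 counts in treated and 238 in untreated libraries. For CD59 the difference was -0.32. Among protease inhibitors it was 0.54 for TIMP1 and -0.27 for TIMP3. For the transcription factor IRF1 it was 1.08. The calls for CD274, CD59 and CDH1 were lost in 10, 8 and 9 of the 12 fits that left out 1 library. On estimated transcript counts they were lost as well, and so were those for TNFRSF14 (0.029, adjusted p = 0.999, edgeR), IRF1 (adjusted p = 0.298), TIMP1 (adjusted p = 0.0748) and HLA-E (adjusted p = 0.0698), all in edgeR's test. The CDH1 call was also lost with DESeq2 (adjusted p = 0.0703), in a robust fit (adjusted p = 0.262) and with a minimum count of 50 (adjusted p = 0.0556).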

How the results depend on the processing

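No paired analysis was possible because the labels give no replicate numbers. Fold changes of the 5 tested members kept their direction and their side of the threshold in 182 of 190 combinations of a comparison and an alternative, and in 285 of 300 fits that left out 1 library. Of the 8 exceptions among the alternatives, all but the ULBP3 call in a fit of the MALME-3M libraries came with estimated transcript counts, a table that holds part of the reads. There the MICB change in MALME-3M cells was 0.66 with 0 members called higher, and the difference of the responses was -0.021 for MICA, -0.19 for MICB and -0.13 for ULBP2. MALME-3M over SK-MEL-5 was 0.18 for MICA in untreated cells; with IFN-γ it was 0.16 for MICA and 1.43 for ULBP3, with 2 members called higher. Over all genes that table gave 527 higher and 415 lower in MALME-3M cells (1504 and 1386 on gene counts), 396 higher and 176 lower in SK-MEL-5 cells (946 and 1114), 68 higher and 69 lower for the difference (422 and 283), 3743 lower between untreated lines (5877), and 3653 higher and 3758 lower between treated lines (5597 and 5749). The cause was not tested. A fit of only the MALME-3M libraries gave ULBP3 -0.57 and 1 member called lower. For the difference, genes called lower numbered 439 with a minimum count of 50, which left ULBP2 untested, and 431 with DESeq2. The split of 422 higher and 283 lower became 340 and 351 with upper-quartile scaling and 329 and 439 with a minimum count of 50.

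Leaving out 1 library moved uncalled members across 0: MICA in MALME-3M cells from -0.054 to 0.015, ULBP2 in SK-MEL-5 cells from -0.81 to 0.014, ULBP3 in SK-MEL-5 cells from -0.15 to 0.39, and the difference from -0.39 to 0.44 for ULBP2 and from -0.29 to 0.12 for NCR3LG1. Genes called lower in SK-MEL-5 cells ranged from 655 to 1148, the lowest without untreated replicate 2 and 665 without treated replicate 3. Genes called higher in the difference ranged from 240 to 355, the lowest without treated MALME-3M replicate 3 and 275 without treated MALME-3M replicate 1. With 1 library of a group left out, the remaining ones are assumed to vary like the other groups. Of 365 combinations for the other genes picked by the naming rule, 33 lost their call and 1 reversed, NID1 in SK-MEL-5 cells on transcript counts, at 0.85. ULBP1 at 2 to 12 counts per group, and ULBP2 in SK-MEL-5 cells, are limited by depth.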
